A study of Mus musculus with 42 samples.

Results

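Resting lung mesenchyme of mice was compared between CD1 animals carrying a Col1a1-GFP reporter (3 RNA-seq libraries) and C57BL/6 animals in which cells of the Col1a2 lineage had been traced (4 RNA-seq libraries). These 7 libraries, both called sham in the labels, were taken from a series of 42 samples, of which 21 were RNA libraries. They were compared over the 24056 genes that both of the deposited RNA tables name. CD1 is an outbred stock and C57BL/6 an inbred strain, the one whose genome the mm10 assembly represents. In both, lungs perfused with buffer were minced and digested for 45 min, and GFP-positive cells negative for CD45 (a leukocyte marker) and for EpCAM (an epithelial marker) were sorted straight into lysis buffer without culture. The CD1 cells alone were also depleted of cells positive for CD31, an endothelial marker. A Col1a1 reporter marks cells in which the promoter of a type I collagen gene is active, whereas a lineage trace marks cells in which a driver has been active once, with their progeny. Strain, reporter and sorting gate therefore differ together and cannot be told apart in any result that follows. The labels give neither the sham procedure, the age and sex of the mice, the driver of the trace, nor whether a replicate is 1 animal or a pool, so a p-value here speaks of the spread among these libraries, which may be technical.

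Lung mesenchyme holds several kinds of fibroblast. Alveolar fibroblasts, some rich in lipid droplets, lie in the alveolar wall, express Tcf21, Npnt and Inmt, and supply growth factors to the epithelium. Adventitial fibroblasts lie in the cuffs around vessels and airways and are marked by Pi16, Dpp4, Cd34 and Col14a1. Smooth muscle, pericytes and mesothelium belong to the same compartment, and all of them build the collagens, elastic fibres and basement membranes of the lung.

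The CD1 libraries held 56715860 to 67721210 reads in named genes and the C57BL/6 libraries 38486459 to 51180598. All levels are given as CPM, the reads of a gene for each 1000000 named-gene reads of its library. The strains come from separately deposited tables, which name partly different genes, so a level set across them also carries any difference in how the tables were counted. Reads were found in 18561 to 18797 genes in the CD1 libraries, whereas C57BL/6 replicates 1 and 2 had 16895 and 17542 genes and replicates 3 and 4 had 20666 and 21359. Across the 12942 genes tested, Spearman's correlation was 0.976 to 0.994 between CD1 libraries (3 pairs), 0.928 to 0.990 between C57BL/6 libraries (6 pairs) and 0.723 to 0.823 between the strains (12 pairs). Genes are not independent replicates, and the pairs share libraries. Within CD1, replicate 2 stood apart through low smooth muscle and glial and high mesothelial levels. Within C57BL/6, replicate 2 lacked transcripts of the Y chromosome. Xist, the X-inactivation RNA (X:103460373-103483233, mm10), had 904, 498 and 835 CPM in CD1, against 0, 33.8, 0 and 0.0242 CPM in C57BL/6. Ddx3y, a Y-linked helicase (Y:1260715-1286628), had 0.0176, 0 and 0 CPM in CD1, against 121, 0, 125 and 134 CPM in C57BL/6. Sex therefore differed between most of the libraries of each strain as well, and its part in the results was not tested.

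The same few transcripts dominated both sorts. Shares of reads are not corrected for transcript length, so their order is one of reads. Gsn, which encodes the actin-severing protein gelsolin (2:35256359-35307902), ranked first in both strains, with 45616, 52211 and 50457 CPM in CD1, against 92055, 66774, 80858 and 78242 CPM in C57BL/6. The CD1 libraries were thus all below the C57BL/6 ones, at a log2 difference of -0.68 ± 0.19 (SE; limma adjusted p = 0.0122). Col3a1, a fibrillar collagen (1:45311538-45349706), ranked second in both, with 19607, 18473 and 26112 CPM in CD1, against 10467, 13978, 17185 and 10366 CPM in C57BL/6. Dcn, the collagen-binding proteoglycan decorin, ranked next in both, with 13389 ± 2688 CPM in CD1 and 10321 ± 1626 CPM in C57BL/6 (SD, n = 3 and n = 4). C3, the central complement component, and Col1a2 completed the first 5 genes of CD1. Timp3, a metalloprotease inhibitor, and Serping1, the inhibitor of complement C1, completed those of C57BL/6. Of the 100 genes with most reads in each strain, 59 were shared. Those 100 took 31.2% to 33.4% of the reads in CD1 and 29.5% to 32.9% in C57BL/6.

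Differences are log2 of CD1 over C57BL/6 after 1 CPM was added, which understates the change of low genes. A gene was called higher or lower in CD1 where limma's moderated test over the 12942 genes gave a Benjamini-Hochberg adjusted p of at most 0.05 and the difference was at least 1, and alike where the 95% confidence interval of the difference lay within 1 of 0. By this rule 2409 genes (18.6%) were higher in CD1 and 2052 (15.9%) lower, together 34.5% of those tested. Another 4434 genes (34.3%) were alike. In 8331 genes (64.4%) the libraries of the strains did not overlap. The median difference of all genes was -0.21. With TMM scaling, which centres the bulk of genes, that median was 0.01 and the calls were 2890 higher and 1331 lower, so 68.5% of called genes were higher against 54.0% without it. A gene called lower by less than that shift beyond 1 loses its call with this scaling. List medians are therefore read against -0.21. Counts in a list are likewise read against 18.6% higher and 15.9% lower, and a list near these shares says little of its own. Of the called genes, 1362 of those higher (56.5%) and 995 of those lower (48.5%) also had all 9 libraries of the CD1 table, cultured cells included, on one side of all 12 libraries of the C57BL/6 table, injured lungs included. Strain and table are the same split, so a gene counted differently in the tables would stand apart in this way too. Of the genes called lower, 20 were at 0 in every CD1 library. Neither the share apart over all 21 RNA libraries nor that at 0 was taken over all genes tested. The 56.5% and 48.5% are therefore not read as particular to called genes.

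**Figure D1:**
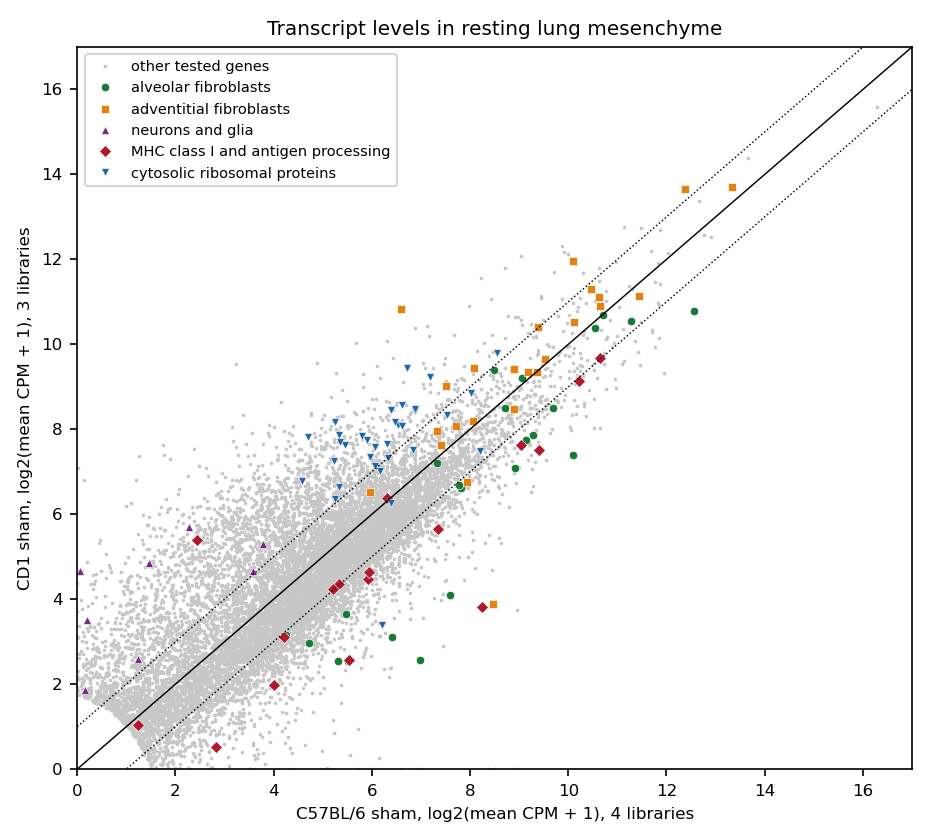
Mean level of each gene tested, as log2(mean CPM + 1), in CD1 sham (vertical) against C57BL/6 sham (horizontal), with members of 5 gene lists coloured; the solid line marks equal levels and the dotted lines a log2 difference of -1 and 1. Alveolar fibroblast and MHC class I genes lie mostly below the solid line, ribosomal protein genes mostly above it, and the 8 tested genes of neurons and glia all above it.

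**Figure D2:**
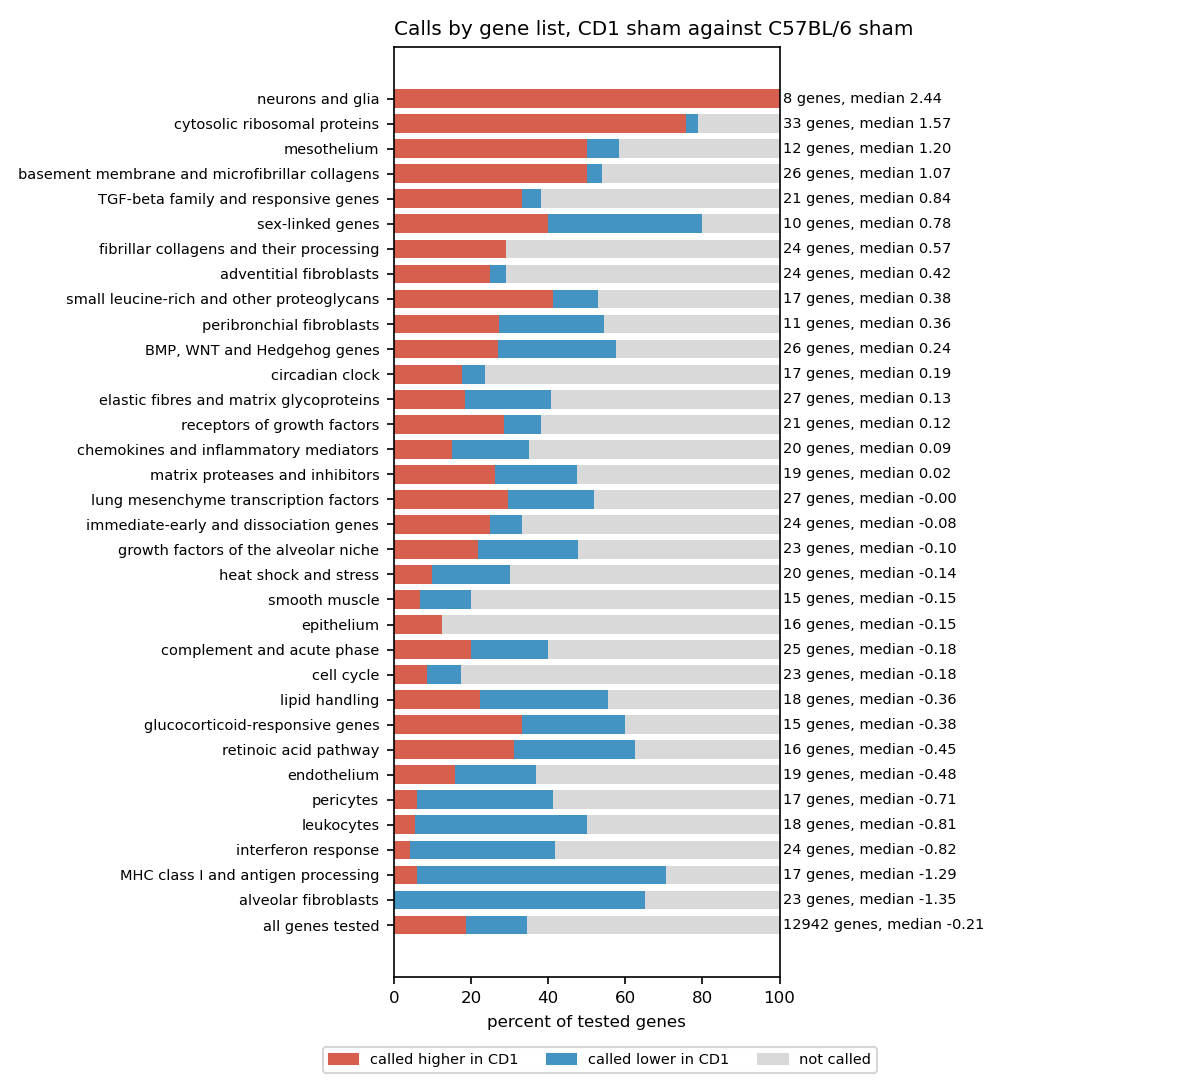
Percent of the tested genes of each list with at least 8 tested members that were called higher in CD1 sham (red), called lower (blue, stacked after the red) or not called (grey), lists ordered by median difference, with all 12942 genes (18.6% higher, 15.9% lower) at the bottom. All 8 tested genes of neurons and glia and 25 of 33 ribosomal protein genes were called higher, and 15 of 23 alveolar fibroblast genes were called lower.

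The difference also moved with the exon length of a gene. When the 12693 genes with a known exon length were cut into 6 equal groups, the median difference was -0.59 in the shortest (30 to 1783 bases), then -0.49, -0.33, -0.18 and 0.14, and 0.50 in the longest (7315 to 125635 bases). The share called higher was 11.1% in the shortest group and 35.2% in the longest, and the share called lower was 26.8% and 8.37%. Long matrix genes stood on the higher side of this trend, so for several gene groups the counts once a smooth trend with exon length is removed are given as well. The part that library preparation or counting has in the trend was not tested.

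**Figure D3:**
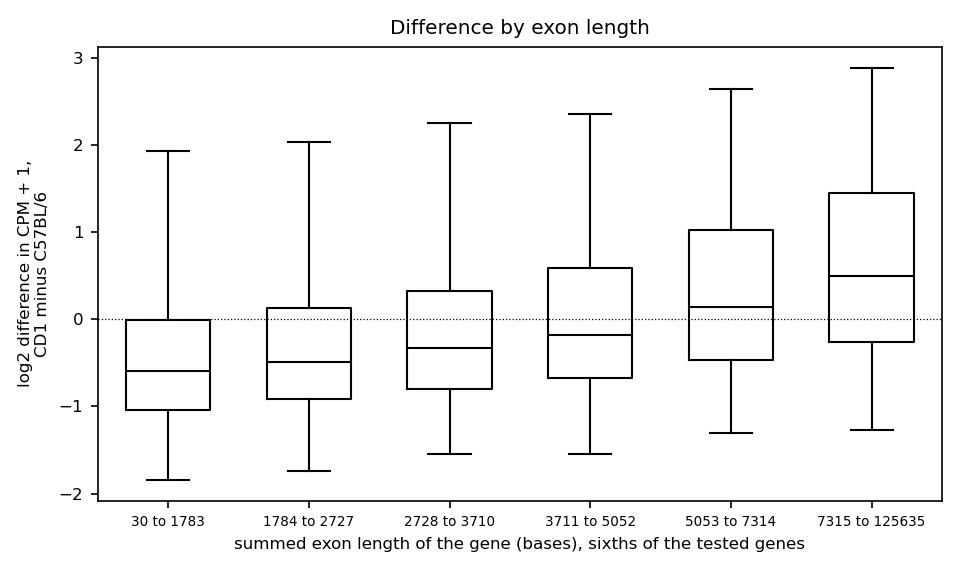
Log2 difference (CD1 sham over C57BL/6 sham) of genes in 6 equal groups by exon length, short to long. Boxes span the quartiles and whiskers the 5th to 95th percentile. The medians climb with length, between -0.59 and 0.50.

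The sorted genes were checked first. Col1a1, whose promoter drives the CD1 reporter, had 5549, 5948 and 8935 CPM in CD1, against 3395, 3347, 2650 and 1966 CPM in C57BL/6, with no overlap. It was called higher at 1.26 ± 0.24 (adjusted p = 0.00185), and fell short of the call at 0.94 with the length trend removed. Col1a2, the gene of the C57BL/6 trace, had 9325, 9359 and 12980 CPM in CD1, against 6645, 6212, 7391 and 5731 CPM in C57BL/6. Its difference of 0.69 ± 0.17 (adjusted p = 0.00714) was below the size needed for a call. Ptprc, which encodes the excluded CD45, was alike at 5.25 to 10.5 CPM in CD1 and 5.48 to 9.24 CPM in C57BL/6. Pecam1, which encodes CD31, had 14.5, 16.1 and 16 CPM in CD1, against 10.8, 18.7, 6.29 and 10.9 CPM in C57BL/6, so the sort that excluded CD31 did not have the lower level. Epcam was under the filter, at 0.458 to 1.39 CPM in CD1 and 0.0391 to 0.291 CPM in C57BL/6.

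Markers of other cell types were low in both sorts. The 24 endothelial markers summed to 363, 349 and 372 CPM in CD1, against 311 to 354 CPM in C57BL/6. Of the 19 tested, 3 were called higher and 4 lower (36.8% called, near the 34.5% of all genes). Cdh5, the endothelial cadherin, was called higher at 1.52 ± 0.44, though not without CD1 replicate 2 or without CD1 replicate 3, and Egfl7 and Car4 were lower. Of the 4 lower calls 1 was kept with TMM scaling and by edgeR (that of Egfl7), 2 with the length trend removed and 0 with C57BL/6 replicates 3 and 4 alone. The 20 epithelial markers summed to 249, 480 and 302 CPM in CD1 and to 205 to 407 CPM in C57BL/6. Sftpc, a surfactant protein of type II cells, had 56.5, 156 and 98.9 CPM in CD1, against 115, 85.9, 88.5 and 129 CPM in C57BL/6, and Sftpb was higher in CD1 at 2.56 ± 0.35.

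The 26 leukocyte markers summed to 123, 248 and 193 CPM in CD1, against 379, 543, 363 and 387 CPM in C57BL/6, and 8 of the 18 tested were lower and 1 higher. Of the 8 lower calls 5 were kept with the length trend removed. The lower ones were led by genes of MHC class II, which presents antigen on professional presenting cells. H2-Eb1 had 0.670 to 1.61 CPM in CD1 and 15.5 to 25 CPM in C57BL/6, and Cd74, the invariant chain, 26.3 to 69.8 CPM in CD1 and 82.6 to 175 CPM in C57BL/6. Ptprc was alike, while the macrophage markers Adgre1 (alike) and Itgam (0.02 ± 0.51) showed no call. The higher marker was Cd68, a lysosomal protein of macrophages, at 1.98 ± 0.23. Cd3e, Cd4, Cd8a, S100a8 and S100a9 were under the filter. In bulk libraries fewer cells of a type and less RNA per cell cannot be told apart. H2-Eb1 is also an H2 gene, and H2 genes are polymorphic between strains. Whether its CD1 reads were lost against the mm10 assembly, which represents C57BL/6, was not tested.

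All 8 markers of neurons and glia that passed the filter were called higher in CD1. The filter takes the mean of the 7 libraries, so a gene low in C57BL/6 can pass it through the CD1 libraries alone. That all 8 were called is therefore partly set by the filter. Without a filter 9 members were called higher, and with a mean of at least 5 CPM 5 were. The whole list of 11 summed to 217, 106 and 237 CPM in CD1, against 26.2 to 44.1 CPM in C57BL/6. Sox10, the transcription factor of the Schwann cell lineage, was higher at 3.23 ± 0.33 (adjusted p = 6.43e-05). The neuronal genes Snap25 and Syt1 were under the filter. The list's median was 2.44, and 6 of its 8 calls were kept with the length trend removed.

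Mural and mesothelial genes depended on CD1 replicate 2. Smooth muscle markers summed to 4223, 1145 and 4848 CPM in CD1, against 2568 to 3042 CPM in C57BL/6, so CD1 replicates 1 and 3 were above all C57BL/6 libraries and replicate 2 below them. Acta2, smooth muscle actin, had 1234, 279 and 1488 CPM in CD1, against 778, 729, 703 and 895 CPM in C57BL/6. Myh11, smooth muscle myosin, had 967, 101 and 1070 CPM in CD1, against 251, 237, 224 and 222 CPM in C57BL/6, and its difference of 1.01 ± 0.71 was not called, though it was without CD1 replicate 2 (2.12), by edgeR (1.86) and by DESeq2 (1.87). Of the 15 smooth muscle genes 1 was higher and 2 lower with all libraries, and 5 were higher and 0 lower without CD1 replicate 2. Des, the muscle intermediate filament, was among the lower at -1.16 ± 0.45, a call lost under most alternatives. Mesothelial markers ran the other way, at 62.7, 226 and 61.7 CPM in CD1 and 98.2 to 177 CPM in C57BL/6. Upk3b, a uroplakin of mesothelium, had 6.93, 45.9 and 6.63 CPM in CD1, against 0.586, 0.971, 2.42 and 1.29 CPM in C57BL/6. With all libraries 6 of 12 mesothelial genes tested were higher and 1 lower, and without CD1 replicate 2 the counts were 2 higher and 2 lower of 10. Upk1b, another uroplakin, was lower in CD1 throughout, at 2.22, 8.86 and 1.31 CPM, against 96.2, 111, 38.3 and 55.0 CPM in C57BL/6.

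Pericyte markers, of cells that wrap capillaries, split. Lamc3, a laminin chain, had 32.7, 45.3 and 39.3 CPM in CD1, against 439, 337, 363 and 439 CPM in C57BL/6, and Trpc6, Higd1b, Cox4i2, Vtn and Gucy1a3 were also lower, 6 of 17 in all, with 1 higher. The counts were 4 higher and 5 lower with TMM scaling, 3 and 6 without CD1 replicate 2, and 5 and 5 with CD1 replicate 2 and C57BL/6 replicates 1 and 2 left out together, where the median was -0.04 against -0.71 with all libraries. Pdgfrb, the PDGF receptor of mural cells and fibroblasts, was alike (588, 495 and 592 CPM in CD1, against 726, 749, 610 and 607 CPM in C57BL/6). Notch3, a receptor of mural cells, differed by 0.33 ± 0.45. Cspg4, the NG2 proteoglycan, was called higher at 1.32 ± 0.41, a call lost without CD1 replicate 1, without CD1 replicate 3 and with the length trend removed.

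**Figure D4:**
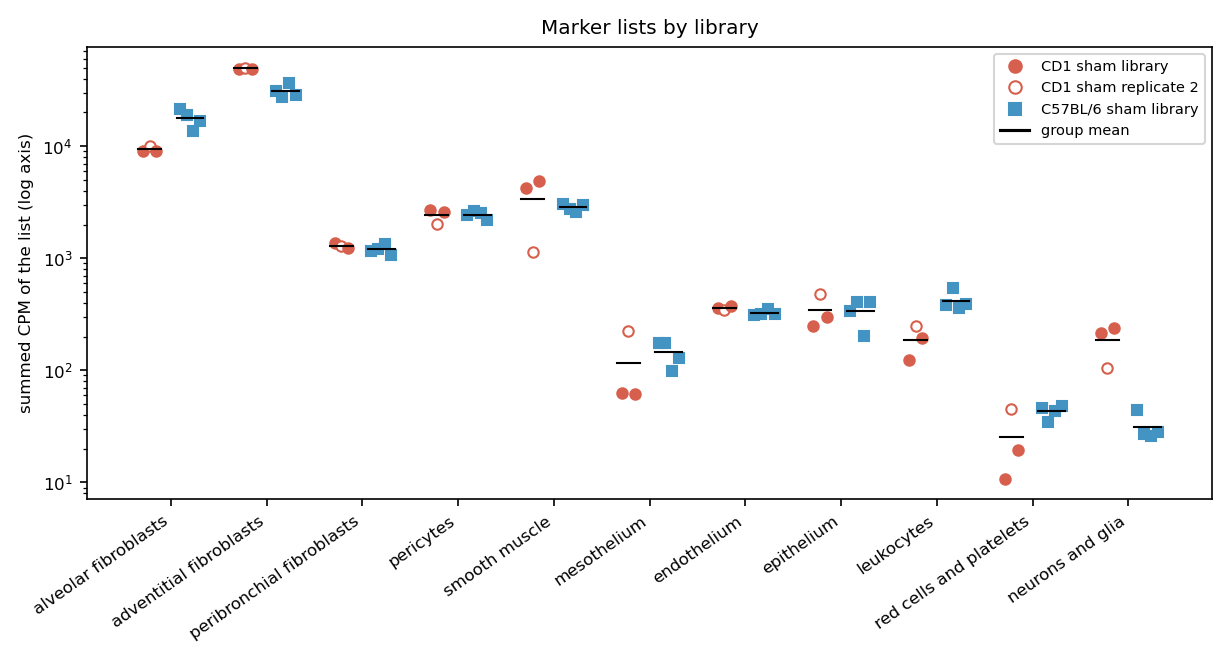
Summed level of 11 marker lists in each library (log10 CPM axis), CD1 sham left of C57BL/6 sham, CD1 replicate 2 as an open circle and the group mean as a black line. CD1 replicate 2 is lowest in smooth muscle (1145 CPM) and highest in mesothelium (226 CPM), and the glial sums of CD1 (106 to 237 CPM) lie above those of C57BL/6 (26.2 to 44.1 CPM).

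Genes of alveolar fibroblasts were lower in CD1. Of 23 tested, 15 were called lower and 0 higher, 5 were alike, and the list's median was -1.35, beside 15.9% called lower and a median of -0.21 over all genes. Summed, the list had 9026, 10016 and 9122 CPM in CD1, against 21566, 18837, 13706 and 16910 CPM in C57BL/6. An exact two-sided permutation test of that sum over the 35 splits of 7 libraries gave p = 0.0571, the smallest the design allows, so no summed list could pass 0.05 (adjusted over the lists, 0.0987). Inmt, a methyltransferase (6:55170627-55174990), had 1469, 2250 and 1587 CPM in CD1, against 9151, 5704, 3562 and 5820 CPM in C57BL/6, a difference of -1.72 ± 0.30 (adjusted p = 0.00108). Npnt, a basement membrane ligand of integrin alpha8 (3:132881745-132950291), had 170, 132 and 200 CPM in CD1, against 977, 1400, 958 and 1059 CPM in C57BL/6, at -2.71 ± 0.18 (adjusted p = 7.46e-06). Its receptor subunit Itga8 was also lower, at -1.28 ± 0.30, a call lost by edgeR and without CD1 replicate 2. Every CD1 library was below every C57BL/6 library for these 3 genes. The largest difference in the list was that of Nebl, an actin-binding protein (2:17342673-17734949), with 4.32, 5.23 and 5.17 CPM in CD1, against 110, 169, 98.6 and 124 CPM in C57BL/6.

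Secreted signals in this list included Bmp3 and Wnt2. Bmp3, a member of the BMP family, had 17.1, 14.7 and 16.7 CPM in CD1, against 126, 301, 156 and 184 CPM in C57BL/6, and the ligand Wnt2 was lower at -1.76 ± 0.27. Tcf21, a transcription factor of lipid-bearing fibroblasts (10:22817263-22820143), had 86.3, 114 and 93.2 CPM in CD1, against 296, 220, 179 and 203 CPM in C57BL/6. Its call at -1.18 ± 0.18 was lost with TMM scaling (-0.93) and with the length trend removed (-0.75). Pdgfra, the PDGF receptor shared by most lung fibroblasts, was alike, at 1418, 1382 and 1193 CPM in CD1, against 1612, 1508, 1470 and 1348 CPM in C57BL/6, and so were Gpc3, Vegfd, Macf1 and Rarres2. Of the 15 lower calls 13 were kept with TMM scaling (1 other gene higher), 14 with the length trend removed, and 12 with CD1 replicate 2 and C57BL/6 replicates 1 and 2 left out together (1 other gene higher).

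Lipid genes, which this cell type is known to use, were called in both directions. Of 18 tested, 6 were lower and 4 higher (55.6% called, against 34.5% of all genes), with a median of -0.36. The 19 genes named in both tables summed to 2718, 3179 and 2664 CPM in CD1, against 4138 to 7253 CPM in C57BL/6. In sum every CD1 library was thus below every C57BL/6 library. G0s2, an inhibitor of lipolysis, had 11.1, 24.6 and 10.4 CPM in CD1, against 274, 246, 102 and 150 CPM in C57BL/6, and Plin2, which coats lipid droplets, was lower at -1.33 ± 0.21. Apoe, a lipid carrier, had 978, 1440 and 983 CPM in CD1, against 5479, 3033, 2752 and 3487 CPM in C57BL/6. By contrast Lpl, lipoprotein lipase, had 547, 608 and 534 CPM in CD1, against 173, 161, 206 and 181 CPM in C57BL/6. Pparg, the adipogenic nuclear receptor, was alike at 2.70 to 3.54 CPM in CD1 and 3.56 to 7.03 CPM in C57BL/6.

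Adventitial genes were more often alike or higher than lower. Of 24 tested, 6 were higher and 1 lower, 11 were alike and the median was 0.42, so the share called higher was not far from the 18.6% of all genes. The sum was 48992, 50309 and 48833 CPM in CD1, against 30876, 27323, 36308 and 28803 CPM in C57BL/6, of which Dcn and C3 made the larger part. Pi16, a marker of adventitial fibroblasts (17:29318796-29328903), had 2225, 2509 and 2822 CPM in CD1, against 1852, 1185, 1475 and 1093 CPM in C57BL/6. At 0.87 ± 0.19 (adjusted p = 0.00423) it was not called, though it was with TMM scaling (1.11). Dpp4, a peptidase of the same cells, had 86.4, 136 and 49.1 CPM in CD1, against 22.1, 56.8, 154 and 13.7 CPM in C57BL/6, with overlapping libraries, and was called higher without C57BL/6 replicate 3 (1.64). Cd34, Ly6a, Il33, Serpinf1 and Mfap5 were alike. Col15a1, a collagen of basement membrane zones (4:47207655-47313167), had 1765, 1495 and 2212 CPM in CD1, against 83.9, 118, 101 and 76.9 CPM in C57BL/6, at 4.25 ± 0.19 (adjusted p = 1.14e-06). The lower gene was Adh7, described with the retinoid genes. Among 11 peribronchial genes 3 were higher and 3 lower. Hhip, which binds Hedgehog ligands, was lower at -1.01 ± 0.17, a call lost with TMM scaling (-0.77) and without CD1 replicate 2 (-0.82).

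**Figure D5:**
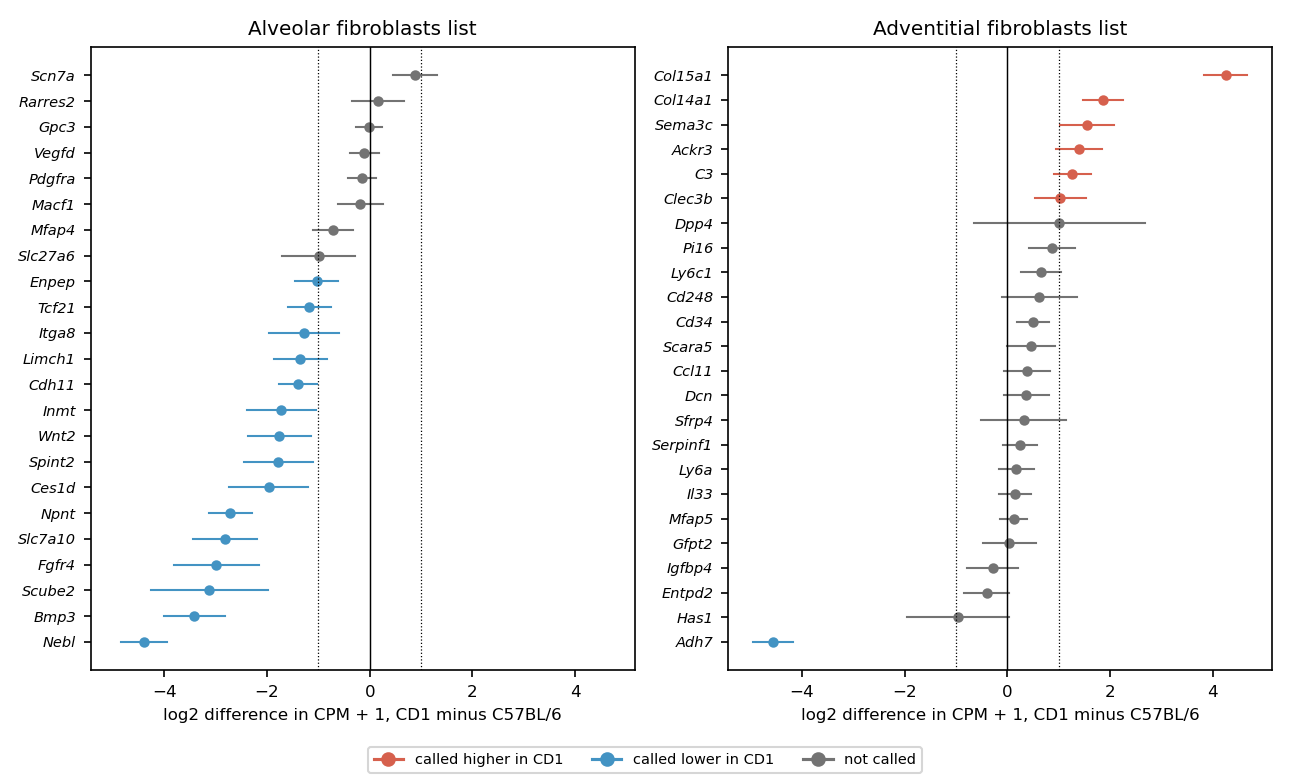
Log2 difference (CD1 sham over C57BL/6 sham) with its 95% confidence interval for each tested member of the alveolar (23 genes) and adventitial (24 genes) fibroblast lists. Most alveolar members lie left of -1, and most adventitial members lie between -1 and 2, with Adh7 and Col15a1 at the ends.

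Matrix genes were counted by class. Among fibrillar collagens and their processing enzymes, 7 of 24 were higher (29.2%, against 18.6% of all genes), 0 lower and 9 alike. With the length trend removed 3 of the 7 kept their call, beside 2114 of 12693 genes called higher in that fit. Col1a1, Col5a1, Col11a1 and Adamts2 lost theirs. Col5a2 and Col5a1, minor fibril chains, were higher at 1.75 ± 0.18 and 1.06 ± 0.16. Single processing enzymes differed by more than these chains. Bmp1, the procollagen C-proteinase, had 464, 470 and 517 CPM in CD1, against 17.7, 36.4, 64.5 and 45.5 CPM in C57BL/6, and Loxl2, a cross-linking enzyme, 432, 425 and 366 CPM in CD1, against 39.9, 54.8, 48.1 and 32.4 CPM in C57BL/6. Serpinh1, the collagen chaperone, and the hydroxylases Plod1 and P4ha2 were alike.

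Basement membrane and microfibrillar collagens held 13 of 26 members higher and 1 lower, with a median of 1.07, and with the length trend removed 8 of the 13 kept their call and the median was 0.62. The calls lost were those of Col4a1, Col4a5, Col4a6, Col6a3 and Col12a1. Hspg2, perlecan, had 1348, 932 and 1732 CPM in CD1, against 111, 148, 112 and 97.2 CPM in C57BL/6. Lamc1, the laminin gamma1 chain, had 2048, 1730 and 1923 CPM in CD1, against 143, 237, 351 and 269 CPM in C57BL/6. The partner chains Lamb1, Lamb2 and Lama4 were alike, and so were Col6a1 and Col6a2, whereas Col6a3 was higher at 1.41 ± 0.17. The lower member was Col13a1, a transmembrane collagen, with 8.11, 16.6 and 7.86 CPM in CD1, against 68.5, 193, 114 and 145 CPM in C57BL/6.

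Elastic fibre and glycoprotein genes went both ways, 5 of 27 higher and 6 lower (40.7% called, against 34.5% of all genes). Fn1, fibronectin, had 5069, 4811 and 5410 CPM in CD1, against 798, 1063, 1304 and 563 CPM in C57BL/6, at 2.52 ± 0.26 (adjusted p = 6.39e-05). Fbn1, the microfibril protein fibrillin-1, was higher at 3.15 ± 0.35 and Tnxb, a tenascin, at 3.35 ± 0.17. Eln, elastin, was 0.95 ± 0.17 and not called. Lower were Spon1, with 219, 275 and 281 CPM in CD1, against 1700, 1531, 1204 and 1482 CPM in C57BL/6, together with Npnt, Ltbp2, Efemp1, Emilin1 and Mfap2. Among 17 proteoglycans 7 were higher, led by Prg4 and Vcan (versican), and 2 lower, Prelp and Fmod. Of 19 proteases and inhibitors 5 were higher and 4 lower (47.4% called, against 34.5% of all genes). Plau, the urokinase that activates plasminogen, had 35.8, 56.5 and 31.3 CPM in CD1, against 0, 0.485, 0.702 and 0.315 CPM in C57BL/6. Every CD1 library was above every C57BL/6 library. Mmp2 and Mmp14 were alike, and Mmp3 (stromelysin) was lower at -1.95 ± 0.17.

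Genes of MHC class I, which displays peptides to cytotoxic T cells, and of its peptide supply were lower in CD1. Of 17 tested, 11 were lower and 1 higher, and the median was -1.29. The whole list of 18 summed to 1846, 2388 and 1920 CPM in CD1, against 4938, 6004, 4054 and 4288 CPM in C57BL/6. The H2 genes are polymorphic between strains and near-identical to one another, so reads can be split among them and their single values are uncertain. H2-T23 had 11.1, 16 and 11.9 CPM in CD1, against 336, 373, 232 and 271 CPM in C57BL/6, and H2-K1 was lower at -1.38 ± 0.18. H2-Q4 was higher, with 38.2, 42.4 and 41.9 CPM in CD1, against 4.79, 6.88, 2.91 and 3.18 CPM in C57BL/6. Members that are not H2 genes were lower as well. Whether CD1 reads were lost against the mm10 assembly, which represents C57BL/6, was not tested for any member. Tapbp, which loads peptides, had 159, 211 and 177 CPM in CD1, against 771, 635, 669 and 639 CPM in C57BL/6. The peptide transporter Tap2 and the immunoproteasome subunits Psmb8, Psmb9 and Psmb10 were lower. B2m, the invariant light chain (2:122147687-122153082), had 527, 689 and 470 CPM in CD1, against 1213, 1608, 922 and 1014 CPM in C57BL/6. Its call at -1.06 ± 0.21 was lost with TMM scaling (-0.82), with the length trend removed (-0.61), without CD1 replicate 3 and without C57BL/6 replicate 2. Erap1, a trimming peptidase, was alike. With TMM scaling 8 of the 17 were lower, with C57BL/6 replicates 3 and 4 alone 7, and with the length trend removed 6.

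Among interferon response genes, 9 of 24 were lower and 1 higher, with a median of -0.82. Ifit3, an antiviral protein, had 11.4, 12.1 and 12.1 CPM in CD1, against 58.4, 66.2, 29.1 and 42.0 CPM in C57BL/6. Irf7, a transcription factor of the interferon response, was lower at -1.08 ± 0.15. Stat2, Irf1, Ifih1 and Ddx58 were alike. Oas2 was the higher one, at 1.09 ± 0.31, a call lost by edgeR and DESeq2, with the length trend removed and with C57BL/6 replicates 3 and 4 alone. Of the 9 lower calls 6 were kept with TMM scaling and 6 with the length trend removed, and that of Irf7 was lost in both. The promoters of these lists, 250 bases before to 50 after the start in RefSeq on GRCm38.p6, were searched on both strands for GAAANNGAAA (on the other strand TTTCNNTTTC), a spelling of the interferon-stimulated response element. It was found in 14 of 24 promoters of the interferon list (58.3%; 21 of 27 genes matched), in 4 of 17 of the MHC class I list (23.5%; 16 of 18 genes matched) and in 1131 of 32851 promoters in all (3.44%). A match is only these letters, not a site shown to be bound. Matches were also held by genes that were not called, among them Ifih1, Gbp2, Ddx58, Isg15, Oas1a, Stat2, Rsad2, Ifit3b and Erap1. Others called lower with a match included H2-T22, Gbp3, Cxcl10, Bst2 and Ifit1. Whether a match goes with a lower level was not tested. The promoters of B2m (chr2:122147437-122147736, plus strand), H2-T23 (chr17:36032652-36032951, minus strand) and Ifit3 (chr19:34583279-34583578, plus strand), chosen because they are called members of these lists that hold a match, are shown with the match in capitals.
B2m: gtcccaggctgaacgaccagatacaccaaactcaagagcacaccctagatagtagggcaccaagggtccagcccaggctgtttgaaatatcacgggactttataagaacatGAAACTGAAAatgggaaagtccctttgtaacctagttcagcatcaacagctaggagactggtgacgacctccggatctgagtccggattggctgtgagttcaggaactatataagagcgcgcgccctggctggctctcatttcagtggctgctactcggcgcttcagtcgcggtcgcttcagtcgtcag
H2-T23: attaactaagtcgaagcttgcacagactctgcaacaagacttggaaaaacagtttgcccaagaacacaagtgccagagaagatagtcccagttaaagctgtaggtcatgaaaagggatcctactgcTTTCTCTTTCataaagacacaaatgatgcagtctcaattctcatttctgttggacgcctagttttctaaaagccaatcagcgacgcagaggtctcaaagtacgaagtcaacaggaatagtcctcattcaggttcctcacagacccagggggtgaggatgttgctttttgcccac
Ifit3: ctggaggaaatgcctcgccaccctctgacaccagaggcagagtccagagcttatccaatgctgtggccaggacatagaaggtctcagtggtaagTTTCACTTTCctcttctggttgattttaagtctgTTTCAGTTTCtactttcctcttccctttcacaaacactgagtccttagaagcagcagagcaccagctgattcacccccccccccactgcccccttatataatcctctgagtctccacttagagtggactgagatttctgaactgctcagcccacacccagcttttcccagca
In B2m the match begins 139 bases before the start on the gene's own strand, and in H2-T23 it begins 124 bases before it on the opposite strand. Ifit3 has 2 matches, both on the opposite strand, the first 156 bases before the start.

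Complement genes, a prominent product of lung fibroblasts, were 5 higher and 5 lower of 25 (40% called, not far from the 34.5% of all genes). C3 had 13792, 10960 and 13852 CPM in CD1, against 5574, 5406, 5973 and 4411 CPM in C57BL/6, at 1.27 ± 0.16 (adjusted p = 2.1e-04). C1s2 and C1rb, duplicates of C1s1 and C1ra that can share their reads, were higher, while C1s1 and C1ra themselves were alike, as was Serping1. The macrophage genes C1qb and C1qc were lower, beside the leukocyte sums given above. Of 20 chemokines and mediators 3 were higher and 4 lower (35% called, near the share of all genes). Cxcl14 had 27.2, 40.8 and 25.1 CPM in CD1, against 223, 324, 129 and 201 CPM in C57BL/6. Cxcl12 was lower at -1.15 ± 0.16, though not called with TMM scaling (-0.90). Il6, Cxcl1 and Il33 had no call.

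The retinoid pathway turns vitamin A into retinoic acid, which acts through nuclear receptors and is known for its part in forming alveoli. Of the 16 genes tested, enzymes and receptors together, 5 were lower and 5 higher. Lrat, which esterifies retinol for storage (3:82892582-82903974), had 19.6, 35 and 19.3 CPM in CD1, against 298, 556, 145 and 390 CPM in C57BL/6. Adh1, a retinol-oxidising alcohol dehydrogenase (3:138277585-138290698), had 234, 332 and 213 CPM in CD1, against 1958, 1577, 1250 and 1589 CPM in C57BL/6. Its neighbour Adh7 (3:138198064-138232042) had 14.2, 16.4 and 11.2 CPM in CD1, against 353, 306, 315 and 432 CPM in C57BL/6, at -4.57 ± 0.17 (adjusted p = 6.63e-07). Aldh1a1, a retinal dehydrogenase, was lower at -2.79 ± 0.27, whereas the related Aldh1a2 and Aldh1a3 were higher at 1.22 ± 0.18 and 1.06 ± 0.21. On the receptor side Rarg and Rxra were higher and Rarb was alike. The whole list of 19 summed to 1100, 1446 and 1079 CPM in CD1, against 4181, 3779, 2805 and 3831 CPM in C57BL/6, where Adh1 alone gave 1250 to 1958 CPM.

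Transcription factors of the lung mesenchyme went both ways, 8 of 27 higher and 6 lower, with a median of 0. Tbx4, a driver of lung mesenchyme identity, had 40.1, 56.7 and 44.7 CPM in CD1, against 145, 337, 229 and 340 CPM in C57BL/6. Foxf1, a Hedgehog target in the same tissue, had 5.31, 7.56 and 6.09 CPM in CD1, against 17.5, 46.3, 60.0 and 74.0 CPM in C57BL/6. Tbx3, Osr2 and Osr1 were also lower (Osr1 not with TMM scaling, -0.78), while Tbx5, Foxp1, Meox2 and Tcf4 were alike. Prrx1, a fibroblast regulator, had 344, 308 and 280 CPM in CD1, against 74.0, 69.2, 78.5 and 60.3 CPM in C57BL/6, and Twist1, Meox1, Gata6, Hoxa4 and Hoxb4 were higher too.

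TGF-beta, the main inducer of matrix in fibroblasts, is released from latent complexes and curbed by secreted inhibitors such as follistatin. Of 21 genes of this family and its targets 7 were higher and 1 lower, with a median of 0.84, and the counts were 11 and 0 with TMM scaling. With the length trend removed the median was 0.43 and the 7 higher calls were kept. Among ligands, Tgfb3 was lower, with 294, 373 and 306 CPM in CD1, against 647, 739, 602 and 668 CPM in C57BL/6 and was not called with TMM scaling. Among receptors, Tgfbr1 and Tgfbr3 were alike and Tgfbr2 was -0.73 ± 0.13. Among inhibitors, Fst, follistatin, had 75.2, 85.8 and 81.9 CPM in CD1, against 6.27, 6.08, 10.9 and 5.65 CPM in C57BL/6. Smad7, the inhibitory Smad that TGF-beta induces, had 36.3, 38.5 and 30.7 CPM in CD1, against 4.38, 5.89, 4.99 and 6.28 CPM in C57BL/6. Tgfbi, named as a TGF-beta target, was higher as well.

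In the BMP, WNT and Hedgehog list 7 of 26 were higher and 8 lower, and 5 of the 8 lower calls were kept with TMM scaling. Among BMP ligands, Bmp4 had 69.8, 111 and 68.9 CPM in CD1, against 219, 185, 161 and 193 CPM in C57BL/6, a lower call lost with TMM scaling. Bmp5 was lower at -1.81 ± 0.10 and Bmp7 at -2.96 ± 0.45, but Bmp6 was higher at 1.77 ± 0.25 and Bmp2 alike. Sfrp1, a secreted WNT inhibitor, had 347, 384 and 302 CPM in CD1, against 32, 57, 74.1 and 59.4 CPM in C57BL/6, whereas the inhibitor Wif1 was lower at -2.70 ± 0.20. The Hedgehog target Gli1 was higher at 1.51 ± 0.22 and its receptor Ptch1 alike.

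Growth factors for the epithelium and endothelium were 5 higher and 6 lower of 23 (47.8% called, against 34.5% of all genes). Fgf10, which acts on epithelial progenitors, had 49.4, 63.2 and 43.2 CPM in CD1, against 102, 110, 99.9 and 105 CPM in C57BL/6, a lower call lost with TMM scaling, and Hgf was lower at -1.38 ± 0.23. Igf1 had 439, 337 and 385 CPM in CD1, against 151, 192, 187 and 148 CPM in C57BL/6, a call lost with the length trend removed, and Vegfa was higher at 1.29 ± 0.36. Among receptors 6 of 21 were higher and 2 lower. The receptors of the insulin family, Igf1r, Igf2r and Insr, were higher at 2.27 ± 0.21, 2.02 ± 0.18 and 1.96 ± 0.20. Fgfr3 was lower, with 28.4, 45.8 and 42.9 CPM in CD1, against 326, 341, 257 and 337 CPM in C57BL/6, and Fgfr1 higher at 1.25 ± 0.19.

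Immediate-early genes, which tissue digestion is known to induce, differed in single members. Of 24 tested, 6 were higher, 2 lower and 10 alike, with a median of -0.08. Fos had 2605, 2988 and 2627 CPM in CD1, against 3678, 3155, 4087 and 4078 CPM in C57BL/6, and Egr1, Nr4a1, Atf3 and Zfp36 were alike like Fos. Fosb (7:19302696-19310118) had 1498, 1113 and 1498 CPM in CD1, against 132, 111, 143 and 164 CPM in C57BL/6, at 3.31 ± 0.17 (adjusted p = 2.07e-06), and Klf4 and Fosl2 were higher at 3.40 ± 0.17 and 2.5 ± 0.20. Junb had 251, 399 and 304 CPM in CD1, against 1524, 1087, 1314 and 1338 CPM in C57BL/6. Heat shock genes were 2 higher and 4 lower of 20 (30% called, against 34.5% of all genes). Among them Hspa1a had 39.8, 27.6 and 42.8 CPM in CD1, against 172, 141, 143 and 192 CPM in C57BL/6. The chaperones Hspa8, Hspa5 and Hspd1 were alike.

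Clock genes, whose level follows the time of day, were 3 higher and 1 lower of 17 (23.5% called, below the 34.5% of all genes). Per1 had 137, 81.2 and 148 CPM in CD1, against 20.3, 12.3, 8.29 and 11.2 CPM in C57BL/6. Arntl, of the opposite phase, had 37.1, 51.1 and 40.2 CPM in CD1, between the C57BL/6 replicates 1 and 2 (28.0 and 28.7 CPM) and 3 and 4 (82.0 and 81.9 CPM). The labels do not state the hour of collection. Glucocorticoid-responsive genes, among them Per1 and Klf9 (higher) and Tsc22d3 and Mt1 (lower), were 5 higher and 4 lower of 15. With TMM scaling and by edgeR 1 of the 4 lower calls was kept, and those of Tsc22d3 and Mt1 were lost.

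Cytosolic ribosomal protein genes formed the list with most members called higher. Of 33 tested, 25 were higher and 1 lower, the median was 1.57, and the counts higher were 29 with TMM scaling and 30 with the length trend removed. They summed to 7312, 10964 and 7765 CPM in CD1, against 4398, 3213, 2113 and 2939 CPM in C57BL/6. Rps4x (X:102184941-102189391) had 634, 829 and 626 CPM in CD1, against 135, 114, 75.2 and 92.9 CPM in C57BL/6. Rps2 was the lower one, at -3.0 ± 0.43. Ribosomal protein genes have many processed copies in the genome, whose reads can be split differently by the counting of each table, so single values are uncertain. Ribosomal protein genes are mostly short, and so went against the trend with exon length.

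Of 23 cell cycle genes tested 2 were higher and 2 lower (17.4% called, below the 34.5% of all genes), and 11 were alike. The list of 31 summed to 484, 500.5 and 477 CPM in CD1, against 630, 673, 749 and 794 CPM in C57BL/6, so every CD1 library was below every C57BL/6 library. Mki67, a proliferation marker, had 3.44, 2.84 and 6.58 CPM in CD1, against 0, 0.211, 0.805 and 0.509 CPM in C57BL/6, a call lost when 5 CPM were added in place of 1 (0.77), and Top2a was higher too, though not by edgeR, while Mcm6 and Ccnd3 were lower. Cdk1, Ccnb1 and Plk1 were under the filter. Noncoding RNAs differed in both directions. Malat1, a nuclear RNA, had 664, 269 and 558 CPM in CD1, against 2192, 1979, 1164 and 1657 CPM in C57BL/6, and Meg3, an imprinted RNA, 293, 102 and 299 CPM in CD1, against 34, 11.4, 16.3 and 17.3 CPM in C57BL/6. Of the 4 replication-dependent histone genes tested 3 were lower and 1 alike, and of 5 genes of red cells and platelets 2 were lower. Nnt, a mitochondrial transhydrogenase with a known deletion in the C57BL/6J substrain, had 65.2, 69.4 and 64.0 CPM in CD1, against 23.7, 44.5, 39.1 and 41.5 CPM in C57BL/6. Its difference of 0.85 ± 0.21 was not called, though it was with TMM scaling (1.09), and the labels do not name the substrain.

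The largest differences among genes with at least 20 CPM in the higher strain included some that the tables themselves bear on. Thy1, a surface glycoprotein that separates fibroblast subsets, had 158, 196 and 142 CPM in CD1, against 1.04, 2.19, 1.74 and 0.630 CPM in C57BL/6, a difference of 6.15 ± 0.26 (adjusted p = 1e-06). Vat1 was higher at 5.01 ± 0.25 and Sash1 at 4.92 ± 0.13. Rian, an imprinted RNA from the cluster of Meg3, had 215, 163 and 208 CPM in CD1, against 2.64, 1.18, 2.88 and 2.74 CPM in C57BL/6. Akap2 had 149, 118 and 135 CPM in CD1, against 0, 0, 0 and 0.0485 CPM in C57BL/6. For Adnp and Cmtr1, 86.1% and 94.2% of the exon bases lie in exons of another gene, and their values of 96.9 to 120 CPM and 71.5 to 78.8 CPM in CD1 against at most 0.313 and 2.5 CPM in C57BL/6 are uncertain, since reads can be assigned to either gene. Pianp, C1s2, Cadm3, Sav1, Plau and Xist were also among the 14.

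On the lower side, 8 of the 14 had no read in any of the 9 libraries of the CD1 table, cultured cells included. They were the mitochondrial genes CYTB, COX1, ND1, ND2, ND4 and ND5 and the genes Vamp7 and Tmlhe. Against the limit of 3 reads over the CD1 group, CYTB (495, 520, 327 and 570 CPM in C57BL/6) was at least 29844-fold lower, Vamp7 at least 3164-fold and Tmlhe at least 1877-fold. A gene at 0 in every library of a table cannot be told apart from one that was not counted there. Zbtb20, a transcriptional repressor, had 14.8, 7.94 and 14.1 CPM in CD1, against 492, 485, 547 and 455 CPM in C57BL/6. Stbd1, a glycogen-binding protein, was lower at -4.53 ± 0.19, and Klhl10, Olfr1033, Cenpp and Adh7 completed the 14. Of the 14 higher and 14 lower genes, all but C1s2 and Cadm3 also kept the tables apart over all 21 RNA libraries, as a gene counted differently in the tables would.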

How the data were processed

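RNA-seq libraries of 3 CD1 and 4 C57BL/6 sham samples were used. The submitters' processing notes name HISAT2, featureCounts of Subread, Picard and DESeq2 with the mm10 build, with no versions; for strandedness, annotation and pooling the sources used here give nothing. The deposited values are a normalized signal: within each library every value was a whole number of reads divided by 1 factor (all values, within 0.05 reads), so whole reads were recovered and written as CPM of named-gene reads. For CD1, 855 rows without a name (2.13% to 2.59% of reads) were left out and 26 names turned into dates were restored; 25 such rows for C57BL/6 were left out. Genes under different symbols in the tables (Selenop and Sepp1, Cavin1 and Ptrf) were not compared. Genes with a mean of at least 1 CPM were fitted with limma 3.58.1 (R 4.3.3, trend) on log2(CPM + 1); edgeR 4.0.16 and DESeq2 1.42.0 on the recovered reads, other scalings, pseudocounts, filters, library sets and a replicate block were alternatives. Summed list levels had exact permutation tests.

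The comparison, gene lists and promoter motif were chosen with earlier results of these data known. Genes named by rule were the 5 most abundant per strain, the 14 largest called differences each way with at least 20 CPM (predicted genes and pseudogenes, 112 higher and 148 lower among the calls, only counted), 2 most changed and 2 most abundant members per list, and a fixed panel. Other list members were named after their values were seen. Some genes that the rule names are not reported here. Tested on simulated data of 12942 genes with 200 changed, the fit recovered 78% of changes of log2 size 2 and 95% of size 3, with 0 wrong signs and 7 unchanged genes called. No replicate pair agreed within sampling noise.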

Additional observations from a re-analysis of the deposited data

Results flagged for a closer look

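In 5 of 66 groups of 4 C57BL/6 libraries examined, 1 library lay far from the other 3 by Dixon's test. Chance gives 1 in 20 for independent groups, but these groups all come from the same 4 libraries, so that rate cannot be compared. The flags of Ddx3y and Xist both concern sex-linked transcripts of replicate 2. Replicate 2 had no Ddx3y reads (0 CPM, the others 120.7 to 134.4 CPM) and 33.81 CPM of Xist (the others 0 to 0.02425 CPM). That Xist level was still below every CD1 library, and the reason was not tested. The same replicate had the highest summed leukocyte markers, 542.9 CPM, against 362.6 to 387.1 CPM in the other 3. Replicate 1 had the highest sum of neuronal and glial markers, 44.08 CPM (the others 26.22 to 28.08 CPM), below all CD1 libraries. Replicate 3 had the highest endothelial sum, 354.5 CPM, against 311.5 to 316.7 CPM in the others.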

How the results depend on the processing

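The numbers of genes called lower in CD1 depended most on scaling and pseudocount: 2052 in the fit reported, 1331 with TMM, 1302 with median-of-ratios scaling and 1217 with a pseudocount of 5 CPM (1814 higher). edgeR called 2810 higher and 1588 lower, and DESeq2 2926 and 1624. Leaving out 1 library gave 2160 to 2484 higher, 1858 to 2224 lower and 3558 to 5292 alike. Of the called genes 3868 were also called by edgeR, 3740 with TMM and 3331 with the length trend removed. With the trend removed, fibrillar collagens higher fell to 3 and basement membrane collagens to 8 (also 3 and 8 over genes sharing no exon base, where the others were not tested), and MHC class I lower to 6, or 7 with C57BL/6 replicates 3 and 4 only. Glial genes higher fell to 5 with a pseudocount of 5 CPM or a mean of at least 5 CPM. With TMM 7 of 38 summed lists changed sign, the farthest from 0 being transcription factors (0.0202, against -0.22). Named genes never changed sign between calls, and the fit without the length trend and a pseudocount of 5 CPM each lost 10 of them. The replicate numbers do not pair the samples (correlations of deviations -0.142, 0.0321 and -0.0374), and with the replicate block 2451 genes were higher and 2077 lower. Depth, equalised by thinning, left 2405 higher and 2060 lower. The causes were not tested. The exon length and exon overlap settings and the set without 3 libraries were chosen after seeing the data.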
